A study of Oryza sativa with 9 samples.

Results

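The iron homeostasis genes described here are 9 rice loci chosen by identifier from the deposited table of TPM values (a transcript level per unit of length, scaled to a sum of 1000000 in each library): FER1, FER2, IRO2, IRO3, NAS1, NAS2, NAS3, YSL2 and YSL15, out of 55986 identifiers in all. RNA was sequenced from leaves of paddy-grown rice at 40 days. Line 2 and line 1 both carry the genotype label osatxr5c;osatxr6kd, a double mutant of the rice counterparts of ATXR5 and ATXR6, enzymes that methylate lysine 27 of histone H3. The third group, titled NP, carries the genotype label WT. Each group held 3 libraries. The labels do not say what the letters c and kd stand for, whether a line goes back to a single transformed plant, or whether a replicate is a plant, a pool or a repeat library, so p-values measure the spread between these libraries, which may be technical. The targeted genes were not analysed here.

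Plants store iron in plastids inside ferritin and move it between tissues bound to small chelators such as nicotianamine. Grasses also make phytosiderophores from nicotianamine, secrete them from the root and take the iron complex back up. In rice, the basic helix-loop-helix factor IRO2 is induced by iron shortage and activates genes of phytosiderophore synthesis and uptake, while IRO3, of the same class, restrains the iron-deficiency response. FER1 and FER2 encode ferritin. NAS1, NAS2 and NAS3 encode nicotianamine synthase. YSL2 and YSL15 are transporters of iron chelates, YSL15 being known for uptake by roots and YSL2 for transport through the phloem.

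In these leaves IRO2 showed by far the largest difference among the 9 genes: it was 7.17-fold higher in line 2 and 5.03-fold higher in line 1 than in WT, by the ratio of mean TPM. IRO3 rose in line 1. NAS3 fell in both lines, but in line 1 its test result depended on the scaling and on single libraries, as given below. FER2 fell in line 2, and both ferritin genes were lower in line 2 than in line 1. NAS1, NAS2 and YSL15 were listed at 0 in all 9 libraries, and YSL2 stayed under 1 TPM throughout.

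The libraries resembled leaf. The summed TPM of 6 leaf loci (Rubisco small subunits and light-harvesting proteins) was 38156 to 39694 in line 2, 34303 to 35455 in line 1 and 34731 to 36833 in WT. One of these loci, LOC_Os01g52240, ranged from 0 to 242 TPM with zeros in line 2 and in WT, so a value of 0 in this table can be unstable. Of 4 genes known for root activity, NRT2.1, NAR2.1 and Lsi2 were listed at 0 in every library. Lsi1 was at 10.95 to 12.5 TPM in line 2, 13.3 to 13.5 in line 1 and 13.8 to 15.5 in WT. The leaf sum was thus highest and Lsi1 lowest in line 2, but the single leaf loci did not all follow the sum. By mean TPM, LOC_Os12g17600, LOC_Os12g19381 and LOC_Os01g41710 were highest in line 2. LOC_Os12g19470 and LOC_Os09g17740 were highest in WT, and LOC_Os01g52240 in line 1. The part of these loci and of Lsi1 in the results below was not tested. In bulk leaf RNA, fewer cells of a type and less RNA per cell cannot be told apart.

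Levels in TPM spanned a wide range within the 9 genes. Ferritin made up 76.1% to 76.7% of their summed TPM in the libraries of line 2, 76.8% to 78.8% in line 1 and 82.0% to 85.0% in WT. In every library the order began with FER1, then FER2, then IRO3, and ended with YSL2 above the 3 genes at 0. The middle of the order differed: IRO2 stood above NAS3 in all libraries of both lines, and NAS3 above IRO2 in all libraries of WT. No neighbours in the order had overlapping libraries within a group, apart from the genes at 0. By mean level, IRO2 lay above 61.9% of the tested genes in line 2, 53.7% in line 1 and 17.4% in WT.

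**Figure D1:**
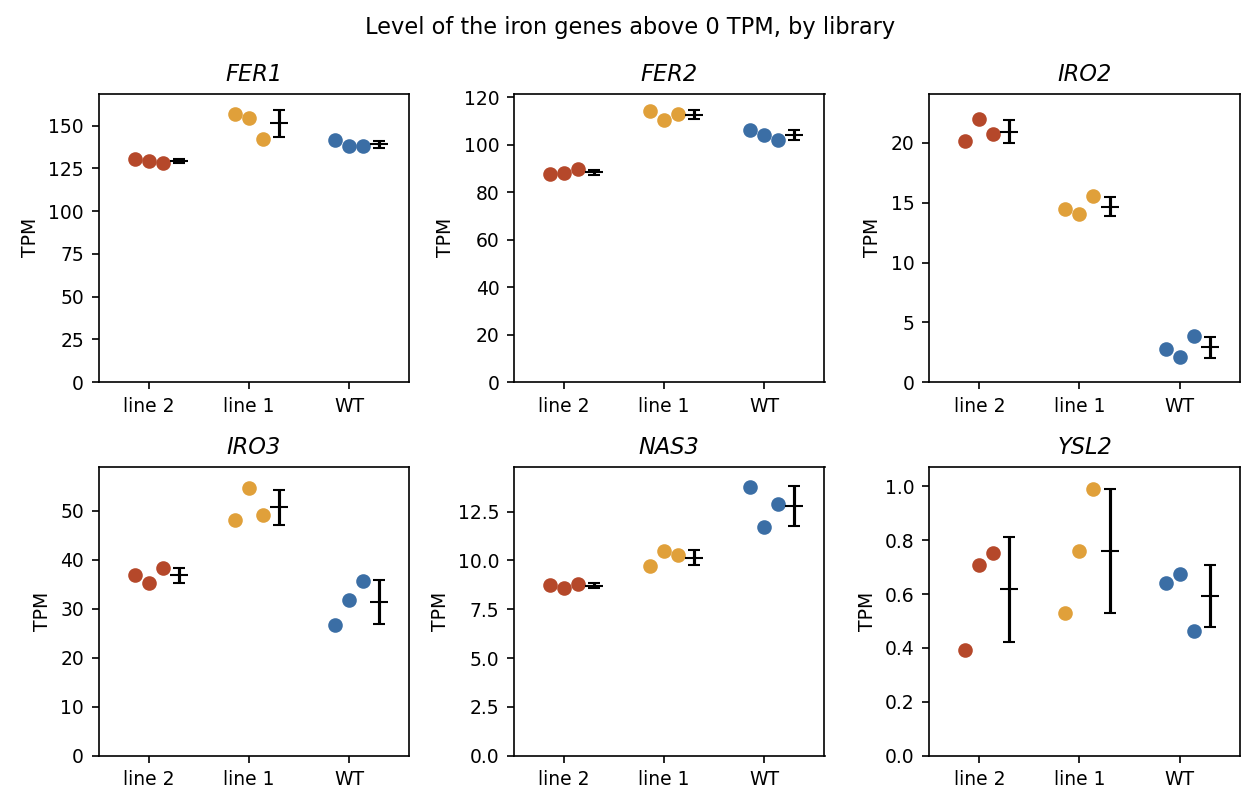
TPM (y axis, from 0) of the 6 iron genes above 0, with 1 point per library and the mean ± SD of 3 libraries beside each group, for line 2, line 1 and WT. IRO2 sits at 20.1 to 22.0 TPM in line 2 and 14.1 to 15.5 TPM in line 1, above 2.14 to 3.85 TPM in WT, and the other genes differ far less between groups.

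Differences were tested with limma on log2(TPM + 1) over the 19345 genes whose mean reached 1 TPM, with Benjamini-Hochberg adjustment over all of them and a threshold of 0.05. Of the 9 iron genes, 5 passed that minimum (FER1, FER2, IRO2, IRO3 and NAS3), each with a mean above 1 TPM in every group. In line 2 against WT 3 of the 5 passed the threshold, 1 higher and 2 lower, where 21.9% of all tested genes passed (13.5% higher and 8.39% lower). Line 1 against WT gave 3 of the 5, 2 higher and 1 lower, where 25.6% of all tested genes passed (9.94% higher and 15.7% lower). Line 2 against line 1 gave 4 of the 5, 1 higher and 3 lower, where 22% passed (15.2% higher and 6.8% lower). The median change of the 5 genes was -0.11 for line 2 against WT, 0.12 for line 1 against WT and -0.22 for line 2 against line 1, beside 0.0025, -0.06 and 0.07 over all tested genes. Both comparisons with WT share the WT libraries, so their values are given side by side only.

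Among the regulators, IRO2 (LOC_Os01g72370) had 20.1, 22.0 and 20.7 TPM in line 2, 14.4, 14.1 and 15.5 TPM in line 1, and 2.77, 2.14 and 3.85 TPM in WT. The groups did not overlap: line 2 was highest, line 1 lay between, and WT was lowest. Its change in log2(TPM + 1) was 2.51 ± 0.13 (SE) in line 2 against WT, at a limma adjusted p of 3.07e-09. It was 2.02 ± 0.13 (SE) in line 1 against WT, at a limma adjusted p of 2.55e-08. A rise of at least 1 that also passed the threshold occurred in 2.58% of tested genes in line 2 and in 2.93% in line 1. Only 57 tested genes (0.295%) had a larger rise in line 2 and 164 (0.848%) in line 1. This scale understates the change of a gene as low as IRO2 in WT: with a pseudocount of 0.1 in place of 1 the changes were 2.84 in line 2 and 2.33 in line 1. IRO2 was also higher in line 2 than in line 1, by 0.48 ± 0.13 (SE), at a limma adjusted p of 0.0147. That last call was lost without line 2 replicate 2, where the adjusted p was 0.0623.

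IRO3 (LOC_Os03g26210), the restraining factor, had 36.8, 35.2 and 38.2 TPM in line 2, 48.1, 54.7 and 49.2 TPM in line 1, and 26.6, 31.8 and 35.6 TPM in WT. Line 1 lay above both other groups with no overlap, whereas the lowest library of line 2 fell below the highest of WT. IRO3 rose by 0.68 ± 0.09 (SE) in line 1 against WT, at a limma adjusted p of 6.83e-05, where 4.66% of tested genes rose more. The difference of IRO3 was 0.23 ± 0.09 (SE) in line 2 against WT at a limma adjusted p of 0.0896. Without WT replicate 3 that difference was 0.33, with an adjusted p of 0.0194, and without WT replicate 1 it was 0.12, with an adjusted p of 0.28. IRO3 was lower in line 2 than in line 1, with a change of -0.45 ± 0.09 (SE) at a limma adjusted p of 0.00272, so between the lines the difference of IRO3 had the opposite sign to that of IRO2.

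The ratio of both regulators within a library does not depend on how libraries are scaled to each other. This ratio, and that of the ferritin genes below, was chosen after the values were seen. IRO3 over IRO2 was 1.83, 1.60 and 1.85 in line 2, 3.33, 3.89 and 3.16 in line 1, and 9.59, 14.8 and 9.26 in WT. Every library of one group stood apart from every library of the others, with means of 1.76 ± 0.14 in line 2, 3.46 ± 0.38 in line 1 and 11.2 ± 3.12 in WT (SD, n = 3 each). An exact two-sided permutation test on mean log2 ratios gave p = 0.1 for each pair of groups. That is the smallest value that 3 against 3 libraries allow. With the ratio chosen after the values were seen, this p-value adds no support to the separation. The ferritin ratio below was tested in the same way. Separation without overlap in the TPM of single genes was itself common: it held for 37.8% of tested genes between line 2 and WT, 38% between line 1 and WT and 38.9% between the lines. No such share was computed for ratios of genes.

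**Figure D2:**
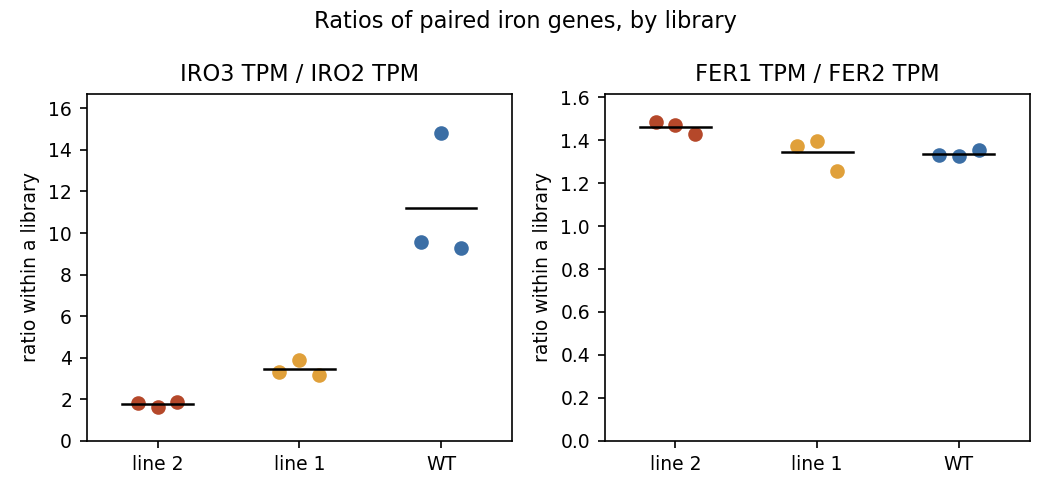
Within-library ratios of IRO3 to IRO2 TPM (left) and FER1 to FER2 TPM (right), with 1 point per library and a bar at the mean of 3 libraries, for line 2, line 1 and WT. The ratio of IRO3 to IRO2 averages 1.76 in line 2, 3.46 in line 1 and 11.2 in WT, while that of FER1 to FER2 stays between 1.26 and 1.49.

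Of the nicotianamine synthase genes, NAS3 (LOC_Os07g48980) was the detected one. It had 8.74, 8.57 and 8.79 TPM in line 2, 9.70, 10.5 and 10.3 TPM in line 1, and 13.8, 11.7 and 12.9 TPM in WT. All 6 mutant libraries lay below all 3 WT libraries. NAS3 fell by 0.50 ± 0.09 (SE) in line 2 against WT, at a limma adjusted p of 0.000623, a difference in mean TPM of -31.9%. In line 1 against WT it fell by 0.30 ± 0.09 (SE), at a limma adjusted p of 0.0189. A larger fall occurred in 2.69% of tested genes in line 2 and in 14.5% in line 1. The call in line 1 was lost without line 1 replicate 1 (adjusted p = 0.0617), without WT replicate 1 (0.055), without WT replicate 3 (0.0556) and after median-ratio scaling of the libraries (0.0572). Between the lines the difference was -0.20 ± 0.09 (SE) at a limma adjusted p of 0.123. It passed after median-ratio scaling (adjusted p = 0.0475) and after quantile normalization (0.0254).

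NAS1 (LOC_Os03g19427) and NAS2 (LOC_Os03g19420), which are neighbours on chromosome 3 with no gene between them in the RefSeq table, were at 0 TPM in each of the 9 libraries. The lowest value above 0 in a library was 0.303 to 0.327 TPM, so a level under about that edge could not be seen. They are close copies, and how reads matching both were treated is not given in the sources used here. Their 0 therefore need not mean a level under that edge.

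The transporters were low or at 0. YSL15 (LOC_Os02g43410), the root uptake transporter, was listed at 0 in all 9 libraries. YSL2 (LOC_Os02g43370) had 0.393, 0.708 and 0.751 TPM in line 2, 0.531, 0.762 and 0.991 TPM in line 1, and 0.643, 0.676 and 0.462 TPM in WT. The 3 groups overlapped, and all values lay close to the lower edge of the table. YSL2 was below the minimum mean. With no minimum its differences were 0.02 ± 0.15 (SE) in line 2 against WT, 0.14 ± 0.15 (SE) in line 1 against WT and -0.12 ± 0.15 (SE) in line 2 against line 1, with limma adjusted p-values of 0.983, 0.586 and 0.646.

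The ferritin genes were the most abundant members and differed mainly between the lines. FER1 (LOC_Os11g01530) had 130.4, 129 and 128 TPM in line 2, 157, 155 and 142 TPM in line 1, and 142, 138 and 138 TPM in WT. Line 2 lay below WT and line 1 above it, with line 1 replicate 3 less than 1 TPM above WT replicate 1. FER1 was lower in line 2 than in line 1, with a change of -0.22 ± 0.05 (SE) at a limma adjusted p of 0.00605. Against WT the differences were -0.11 ± 0.05 (SE) in line 2 and 0.12 ± 0.05 (SE) in line 1, with limma adjusted p-values of 0.177 and 0.108.

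FER2 (LOC_Os12g01530) had 87.7, 88.0 and 89.6 TPM in line 2, 114, 111 and 113 TPM in line 1, and 106, 104 and 102 TPM in WT. The 3 groups did not overlap, with line 2 lowest and line 1 highest. FER2 fell by 0.23 ± 0.05 (SE) in line 2 against WT, at a limma adjusted p of 0.0029, where 12.1% of tested genes fell more. The difference of FER2 was 0.11 ± 0.05 (SE) in line 1 against WT at a limma adjusted p of 0.11. Between the lines the change was -0.35 ± 0.05 (SE), at a limma adjusted p of 0.000134. After median-ratio scaling both ferritin genes passed in line 1 against WT, with changes of 0.18 for FER1 and 0.17 for FER2 and adjusted p-values of 0.0271 and 0.025. After quantile normalization these changes were 0.06 for FER1 and 0.06 for FER2, with adjusted p-values of 0.392 and 0.428.

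FER1 and FER2 are close copies, named by their identifiers on chromosomes 11 and 12, so the division of reads between them is uncertain and their sum is given too. The sum averaged 218 ± 0.389 TPM in line 2, 264 ± 7.92 TPM in line 1 and 243 ± 4.12 TPM in WT (SD, n = 3 each). In a fit with the sum in place of both genes, it fell by 0.28 ± 0.05 (SE) in line 2 against line 1, at a limma adjusted p of 0.000509. It fell by 0.16 ± 0.05 (SE) in line 2 against WT, at a limma adjusted p of 0.021, a call that was lost without line 2 replicate 1 (0.0681), without line 2 replicate 2 (0.0759), without line 2 replicate 3 (0.0607) and without WT replicate 2 (0.0553), and with a constant prior variance (0.0951). In line 1 against WT the difference of the sum was 0.12 ± 0.05 (SE) at a limma adjusted p of 0.0757. That difference passed without WT replicate 1 (0.0476) and after median-ratio scaling (0.0182), whereas after quantile normalization it was 0.06 (adjusted p = 0.367). The ratio of FER1 to FER2 was 1.49, 1.47 and 1.43 in line 2, 1.37, 1.40 and 1.26 in line 1, and 1.33, 1.33 and 1.35 in WT. It was highest in line 2, where an exact two-sided permutation test gave p = 0.1 against each other group, the smallest possible, and p = 1 for line 1 against WT.

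**Figure D3:**
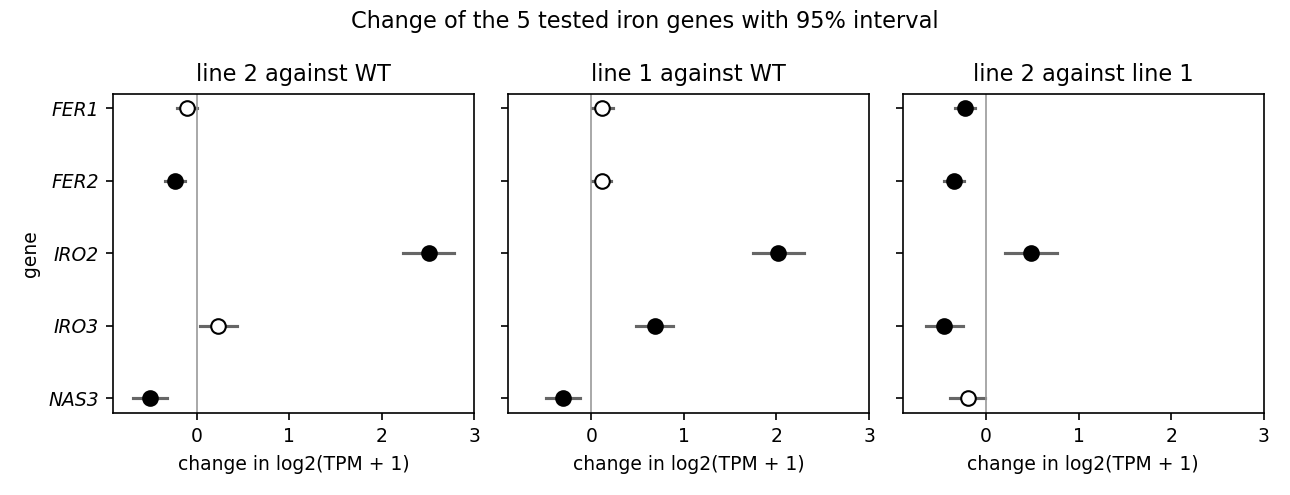
Change in log2(TPM + 1) on the x axis for the 5 tested iron genes, with the 95% interval from limma as a line, in line 2 against WT, line 1 against WT and line 2 against line 1. Filled points pass an adjusted p of 0.05: IRO2 stands at 2.51 and 2.02 against WT, and FER1, FER2 and IRO3 are lower in line 2 than in line 1.

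By a rule of smallest mean absolute difference between centred log2(TPM + 1) profiles over the 9 libraries, the tested gene most like IRO2 was LOC_Os04g03920, at a difference of 0.14. It had 21.4, 21.1 and 19.6 TPM in line 2, 15.9, 16.2 and 15.2 TPM in line 1, and 2.29, 2.56 and 2.92 TPM in WT. For IRO3 the closest gene was LOC_Os02g38140 at 0.06, and for NAS3 it was LOC_Os12g23280 at 0.04. Among the iron genes themselves the profile closest to IRO2 was that of IRO3, but at 0.81. IRO3 was closest to FER1 at 0.21, and NAS3 to FER2 at 0.15. FER1 and FER2 spanned under 0.5 between their highest and lowest library and were given no match. These are the nearest of 19345 genes and describe pattern only.

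A list of 26 other rice loci of iron uptake, transport, storage and regulation was set beside the 9 genes, and 20 of them passed the minimum mean. In line 2 against WT 4 of the 20 passed the threshold, 2 higher and 2 lower (20%, against 21.9% of all tested genes). Line 1 against WT gave 5, 2 higher and 3 lower (25%, against 25.6%). Line 2 against line 1 gave 4, 2 higher and 2 lower (20%, against 22%). These shares are near those of all tested genes. The median change of the 20 genes was 0.05, 0.06 and -0.05 in the 3 comparisons. The count in line 1 against WT fell to 2 without line 1 replicate 1, without line 1 replicate 3 or without WT replicate 3, and to 3 without WT replicate 2.

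NRAMP1 (LOC_Os07g15460), a metal transporter that can carry iron, had the largest rise on that list. It had 7.72, 8.33 and 8.99 TPM in line 2, 18.0, 17.1 and 15.8 TPM in line 1, and 2.40, 2.43 and 3.19 TPM in WT. No groups overlapped, and line 1 was highest, unlike IRO2, for which line 2 was highest. Its change was 1.35 ± 0.11 (SE) in line 2 against WT, at a limma adjusted p of 4.05e-07, and 2.29 ± 0.11 (SE) in line 1 against WT, at a limma adjusted p of 9.36e-10. Between the lines it was lower in line 2, with a change of -0.94 ± 0.11 (SE) at a limma adjusted p of 1.98e-05.

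VIT2 (LOC_Os09g23300), a vacuolar iron transporter, had 6.47, 9.05 and 9.08 TPM in line 2, 19.8, 19.6 and 19.5 TPM in line 1, and 16.6, 16.8 and 15.5 TPM in WT. Like FER2 it was lowest in line 2 and highest in line 1. It fell by 0.93 ± 0.11 (SE) in line 2 against WT, at a limma adjusted p of 1.64e-05, and by 1.18 ± 0.11 (SE) in line 2 against line 1, at a limma adjusted p of 1.92e-06. In line 1 against WT its difference was 0.25 ± 0.11 (SE) at a limma adjusted p of 0.1. VIT1, of the same family, had differences of 0.0010 (line 2 against WT), 0.13 (line 1 against WT) and -0.13 (line 2 against line 1), with limma adjusted p-values of 0.996, 0.128 and 0.147.

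**Figure D4:**
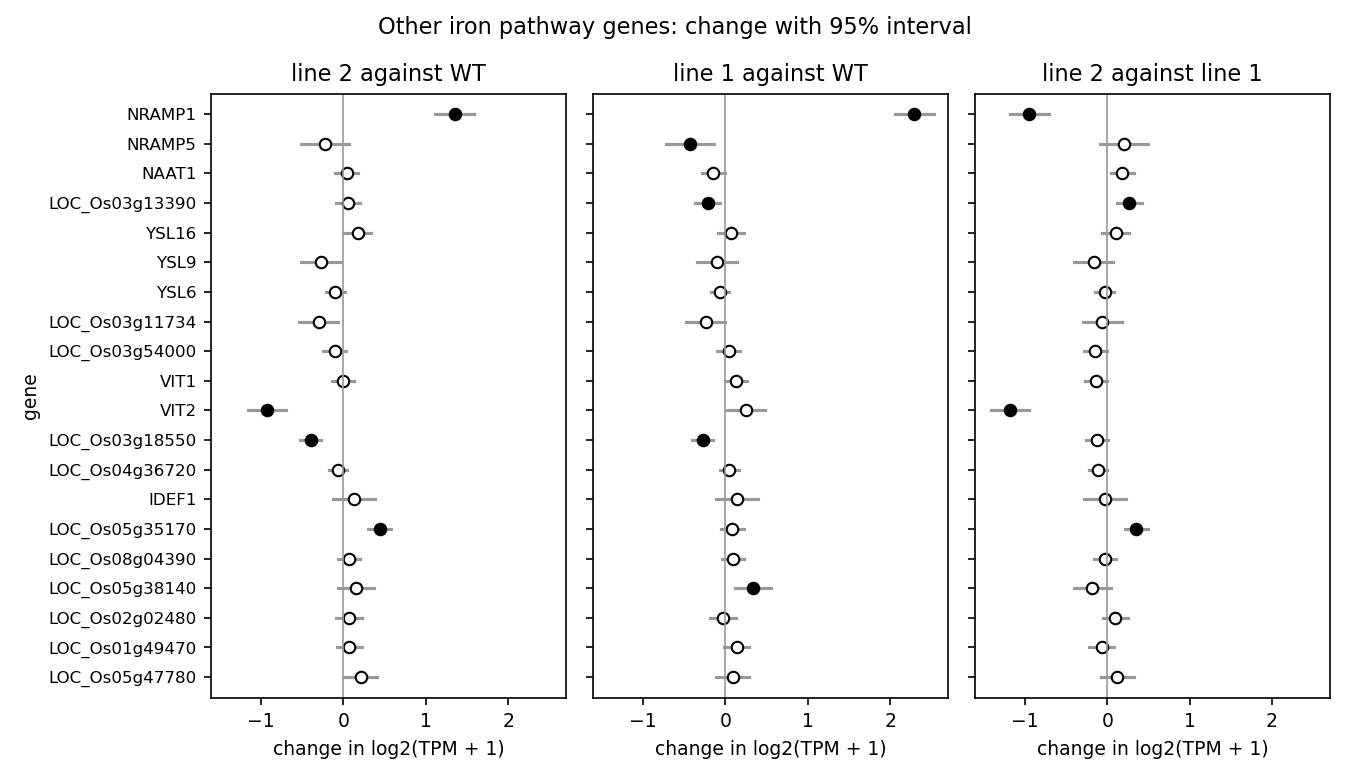
Change in log2(TPM + 1) on the x axis for the 20 tested genes of the wider iron list, with the 95% interval from limma as a line, in line 2 against WT, line 1 against WT and line 2 against line 1. Filled points pass an adjusted p of 0.05, and genes whose paired name was not found in the reference table carry their identifier. NRAMP1 at 1.35 and 2.29 against WT and VIT2 at -1.18 between the lines lie farthest from 0.

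The iron transporter IRT2 was listed at 0 throughout. IRT1 was at 0.628 to 0.811 TPM in line 2, 0.516 to 0.706 in line 1 and 0.662 to 1.56 in WT, below the minimum mean. NAAT1, which converts nicotianamine in phytosiderophore synthesis, was named after its values were seen, and targets of IRO2 were not tested as a set. NAAT1 was abundant, at 384 to 398 TPM in line 2, 338 to 353 TPM in line 1 and 335 to 406 TPM in WT. Its differences were 0.04 ± 0.07 (SE) in line 2 against WT and -0.14 ± 0.07 (SE) in line 1 against WT, with limma adjusted p-values of 0.732 and 0.128. NRAMP5, a manganese transporter that also carries iron, was lower in line 1 than in WT, with a change of -0.43 ± 0.13 (SE) at a limma adjusted p of 0.0316. That call was lost without line 1 replicate 1 (0.104), without line 1 replicate 3 (0.0988), without WT replicate 2 (0.107) and without WT replicate 3 (0.1), and in a fit of only the groups compared (0.0566).

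The remaining calls on the list were of loci whose paired names were not found in the reference table on the chromosome in the identifier. The same held for FER1, FER2 and IRO2. LOC_Os03g18550 was paired with the name MIT, LOC_Os05g35170 with IDEF2, LOC_Os05g38140 with PRI2 and LOC_Os03g13390 with DMAS1. LOC_Os03g18550 fell in both lines, by 0.40 ± 0.06 (SE) in line 2 and by 0.28 ± 0.06 (SE) in line 1, with limma adjusted p-values of 0.000261 and 0.00452. LOC_Os05g35170 was higher in line 2, by 0.44 ± 0.07 (SE) than in WT and by 0.35 ± 0.07 (SE) than in line 1, with limma adjusted p-values of 0.000175 and 0.00134. LOC_Os05g38140 was higher in line 1 than in WT by 0.33 ± 0.10 (SE), at a limma adjusted p of 0.0281. LOC_Os03g13390 was lower in line 1 than in WT, with a change of -0.21 ± 0.07 (SE) at a limma adjusted p of 0.041, and higher in line 2 than in line 1 by 0.27 ± 0.07 (SE), at a limma adjusted p of 0.0136. The call of LOC_Os05g38140 was lost without line 1 replicate 1 (adjusted p = 0.113), line 1 replicate 3 (0.118), WT replicate 2 (0.0505) or WT replicate 3 (0.117), and in fits of only the groups compared (0.0566) and with a constant prior variance (0.0711). For LOC_Os03g13390 in line 1 against WT, every fit that left out a library lost the call except those without line 2 replicate 3 and without WT replicate 2, with adjusted p-values up to 0.112. The same call was lost after quantile normalization (0.105) and median-ratio scaling (0.151), in a fit of only the groups compared (0.0795), with a constant prior variance (0.0501) and with the replicate number as a block (0.0533). Between the lines its call was lost without line 2 replicate 1 (0.0529) or line 2 replicate 2 (0.0701), after median-ratio scaling (0.0736) and after quantile normalization (0.0762).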

How the data were processed

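The authors deposited 1 table of TPM with 1 column per library. The submitters' processing notes name fastp 0.20.1, HISAT2 2.1.10 and DESeq2 1.26.0 with no role. The program that computed TPM, the build, the annotation, the strand setting and the treatment of reads shared by gene copies are not given in the sources used here. TPM keeps no sequencing depth, so precision rests on the spread between libraries within groups. The fit pools that spread over all 9 libraries and draws it toward that of other genes of like level. Groups come from the sample titles.

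All 9 libraries entered 1 linear model per gene on log2(TPM + 1) with a mean per group (limma 3.58.1, R 4.3.3, trended prior), kept at a mean of at least 1 TPM. Tests are two-sided, and adjusted p-values of this main fit cover all 19345 genes tested. Other fits were adjusted over their own genes, as with the 24824 genes of the fit with no minimum, used for YSL2. The fit of the ferritin sum was likewise adjusted over its own genes. The fit was tested on simulated libraries. Alternatives were a pseudocount of 0.1, no minimum or a minimum mean of 5 TPM, quantile and median-ratio scaling, only the groups compared, a constant prior, a replicate block, and each library left out in turn.

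All 9 iron genes are named. Of the 26 other loci, those past the threshold in any comparison are named, and others are given as counts; VIT1, NAAT1, IRT1 and IRT2 were added after their values were seen. Identifiers were paired with names by general knowledge of rice genes. Of these names, RefSeq (ASM3414082v1) lists 6 of 9 and 11 of 26 on the chromosome in the identifier; it holds OsIRO2 only as a synonym of IRO3. No coordinates or sequences are given. The members and lists were chosen with earlier results of these data known.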

Additional observations from a re-analysis of the deposited data

Results flagged for a closer look

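Line 2 and line 1 carry the same genotype label, so line 2 against line 1 tests directly whether the difference from WT was the same in both lines. In limma's test with Benjamini-Hochberg adjustment over 19345 genes this difference between the lines passed 0.05 for 4 of the 5 tested iron genes, where 22% of all tested genes passed. The change was 0.48 for IRO2 (adjusted p = 0.0147), higher in all 3 libraries of line 2. It was -0.45 for IRO3 (adjusted p = 0.00272), -0.22 for FER1 (adjusted p = 0.00605) and -0.35 for FER2 (adjusted p = 0.000134), each lower in all 3 libraries of line 2. Such separation between the lines held for 38.9% of all tested genes, and also for NAS3, which did not pass. FER1 and FER2 are close copies with an uncertain division of reads, so they are not separate passes. The call of IRO2 was lost without line 2 replicate 2 (limma adjusted p = 0.0623). The labels name no batch.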

How the results depend on the processing

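None of the recomputed changes of the iron genes, the ferritin sum or the named loci changed direction. Of 255 recomputed changes of the 5 tested iron genes, 245 kept their side of the threshold, 5 lost it and 5 gained it. IRO2 against WT passed everywhere, with changes of 2.36 to 2.84 (line 2) and 1.87 to 2.33 (line 1). Counts of iron genes past the threshold stayed at 3 to 4 in line 2 against WT, 2 to 4 in line 1 against WT and 3 to 5 between the lines. The count of other iron loci in line 1 against WT was 5, but 3 in a fit of only the groups compared, 3 with a constant prior variance, 7 after median-ratio scaling, and 2 to 6 when single libraries were left out. The FER1 and FER2 sum in line 1 against WT had a change of 0.18 after median-ratio scaling, 0.06 after quantile normalization and 0.10 to 0.14 without single libraries. In line 2 against WT it was -0.16 with a constant prior variance and -0.17 to -0.15 without single libraries.

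The titles number libraries 1 to 3 in each group. Deviations of same-numbered libraries from their group means correlated at r = 0.012 to 0.21 across genes, above 0.1 in 3 of 9 pairs. Libraries with different numbers were not compared, and whether the numbers pair libraries was not tested. The main fit used no block because the titles do not say that a number marks a shared plant or batch. With the replicate number as a block, the iron genes past the threshold numbered 3, 3 and 4 in line 2 against WT, line 1 against WT and line 2 against line 1. Of all tested genes, 4301, 5076 and 4381 passed with the block, and 4236, 4953 and 4256 without it. The block ended 1 call, that of LOC_Os03g13390 in line 1 against WT (adjusted p = 0.0533). It raised the count of other iron loci past the threshold in line 2 against line 1 from 4 to 5. The depth is unknown, so no counting error can be given for YSL2 or for the genes at 0.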
